A study of Mus musculus with 44 samples.

Results

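The proteasome genes of mouse plasma cells are described here: the genes whose symbol begins with Psm followed by a letter from a to g and a number, and whose mean over all libraries reached 1 CPM (a count scaled to the size of its library). Of 54960 gene rows, 48 match the name and 46 pass the limit. The member just inside the limit was the assembly chaperone gene Psmg3, at a mean of 20.6 CPM. Just outside it was Psma8, the alpha subunit of germ cells, at 0.36 CPM, and the thymic catalytic subunit gene Psmb11 was at 0 in every library. The choice used no comparison between groups, and all 46 members were among the 12457 genes tested.

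The cells were CD138high B220- plasma cells of BEC-YFP mice given tamoxifen, taken from spleen and bone marrow and separated by YFP fluorescence. As background, BEC strains carry a tamoxifen-inducible Cre driven by the plasma cell gene Prdm1, so that YFP marks plasma cells that were present, and recombined, when tamoxifen was given. The labels call YFP+ cells long-lived plasma cells and YFP- cells bulk plasma cells. The YFP- cells come from the same treated mice and are therefore plasma cells formed later or not recombined, not untreated controls. Mice taken at day 90 were young (6 to 8 weeks at tamoxifen) or middle-aged (24 weeks), and mice taken at day 5 were 24 weeks old at treatment. Day 90 groups of an age, organ and sort held 4 libraries each, but the young YFP+ groups held 3. At day 5 each group held 3 libraries, except 4 of YFP+ spleen cells. In all, 43 libraries of 13 mice in 12 groups entered the comparisons, and 1 further library with conflicting labels entered none. Mice of day 5 are named by a date-like number in the titles, and libraries that share it were taken as the same mouse. Total counts were 6643295 to 12663103 per library. The comparisons between sorts, organs, days and ages reuse the same groups, so their results are not independent of each other.

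The proteasome is the protease that degrades proteins tagged with ubiquitin. Its 20S core is a barrel of outer alpha rings and inner beta rings, and the beta rings hold the proteolytic sites. The 19S cap binds, unfolds and feeds the substrate with a ring of ATPases and a lid, and other activators can take the place of the cap. In cells exposed to interferon and in many lymphoid cells, immunoproteasome subunits replace the constitutive catalytic subunits. Plasma cells, which make large amounts of secreted antibody, are known for their sensitivity to proteasome inhibitors.

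The promoters of 4 members are shown because the results below turn on these genes: Psmd8 is the only member that passed the test in any comparison, Psma2 and Psmb6 represent the core genes that varied together between libraries, and Psmd2 varied the opposite way. They were chosen after their values were seen. Each line gives 300 bases on the gene's strand, 250 before and 50 after the RefSeq start, from the GRCm38.p6 table, and capitals mark any match to 4 searched motifs. The motifs, searched on both strands, were TGANNNAGC and TGACNNNGC (forms of the antioxidant response element core, used by the proteasome gene regulator Nfe2l1; both can match the same bases), GAAA, any 2 bases, GAAA (a core of interferon regulatory factor elements) and CCAAT (the NF-Y box).
Psmd8, chr7:29180624-29180923, minus strand: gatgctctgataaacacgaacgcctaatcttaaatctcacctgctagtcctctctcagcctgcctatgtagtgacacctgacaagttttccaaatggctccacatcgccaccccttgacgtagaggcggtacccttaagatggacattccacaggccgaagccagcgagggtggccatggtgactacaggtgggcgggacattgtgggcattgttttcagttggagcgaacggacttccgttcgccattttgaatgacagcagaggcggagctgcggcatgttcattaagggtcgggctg
Psmb6, chr11:70525107-70525406, plus strand: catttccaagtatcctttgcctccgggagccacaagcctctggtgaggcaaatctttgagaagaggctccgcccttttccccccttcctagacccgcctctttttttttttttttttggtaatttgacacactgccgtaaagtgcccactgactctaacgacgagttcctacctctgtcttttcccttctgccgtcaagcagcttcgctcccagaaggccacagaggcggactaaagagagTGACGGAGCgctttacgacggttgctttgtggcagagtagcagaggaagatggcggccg
Psma2, chr13:14612992-14613291, plus strand: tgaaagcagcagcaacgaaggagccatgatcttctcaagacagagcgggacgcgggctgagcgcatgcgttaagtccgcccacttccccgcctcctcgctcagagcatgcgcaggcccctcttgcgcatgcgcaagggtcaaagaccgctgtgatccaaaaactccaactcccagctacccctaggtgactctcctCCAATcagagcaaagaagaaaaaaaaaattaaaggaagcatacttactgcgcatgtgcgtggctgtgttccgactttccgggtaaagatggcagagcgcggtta
Psmd2, chr16:20651402-20651701, plus strand: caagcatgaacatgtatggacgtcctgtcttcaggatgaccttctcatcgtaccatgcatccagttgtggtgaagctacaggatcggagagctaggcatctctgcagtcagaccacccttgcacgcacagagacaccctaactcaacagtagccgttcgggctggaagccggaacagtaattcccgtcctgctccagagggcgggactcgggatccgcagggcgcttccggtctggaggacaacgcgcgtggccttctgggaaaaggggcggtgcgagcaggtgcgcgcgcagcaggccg
The capitals in Psmb6 match both response element forms, and those in Psma2 match CCAAT. No searched motif was found in these windows of Psmd8 and Psmd2. The table held 42 promoters of 39 of the 46 members. TGANNNAGC was found in 23.81% of them against 14.54% of all 32851 promoters in the table, TGACNNNGC in 14.29% against 12.39%, the paired GAAA motif in 11.9% against 3.443%, and CCAAT in 30.95% against 37.41%. These are counts of letters, and binding was not measured.

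Sorted identity was checked by marker genes. The plasma cell genes Sdc1 (which encodes CD138), Prdm1, Irf4 and Xbp1 were above 0 in all 43 libraries, with medians of 594, 103, 187 and 11702 CPM. Markers of other cells were unevenly present: the summed level ranged from 0 to 2540 CPM for 7 neutrophil genes, from 25.1 to 1810 for 6 monocyte and macrophage genes, from 0.804 to 2367 for 5 erythroid genes, from 272 to 601 for 4 plasmacytoid dendritic cell genes, from 53.8 to 250 for 6 mature B cell genes, from 2.49 to 79.7 for 4 NK cell genes, from 0.943 to 41 for 6 T cell genes and from 0 to 2.08 for 4 megakaryocyte genes. The defining genes Pax5, Cd3e and Ncr1 were at 0 in 35, 28 and 42 of the 43 libraries. Of the plasmacytoid dendritic cell genes, Siglech was at 0 in 27 libraries and reached at most 7.67 CPM. Their sum came from Bst2, Tcf4 and Irf8, with medians of 198, 123 and 46.1 CPM, so it does not show such cells. The NK cell sum came mostly from Gzma, with a median of 17.9 CPM. In RNA from sorted populations, fewer cells of a type and less RNA per cell cannot be told apart.

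The 46 members together took 0.845% to 1.29% of the counts of a library, with a median of 1.05%. Levels between genes are compared as CPM per kb of the gene's principal transcript, since a longer transcript yields more reads. The values depend on the transcript chosen, and the shortest principal transcript in place of the longest changed the value of Psmf1, the gene of a proteasome inhibitor protein, from 18.1 to 49.9 CPM per kb and that of the lid gene Psmd11 from 59.8 to 104.7. The highest value was that of Psmb8, an immunoproteasome catalytic subunit, at a mean of 666 CPM per kb over the 43 libraries. The constitutive catalytic subunit Psmb6 followed at 583 and the alpha subunit Psma7 at 470. The 7 alpha ring genes spanned 148 to 470 CPM per kb and the 4 structural beta genes, Psmb1 to Psmb4, 168 to 435. The 6 genes of the 19S ATPase ring had a median of 165, and 5 of them lay between 133 and 170, with Psmc6 lower at 48.6. The 14 Psmd genes (the other cap subunits and some cap assembly factors) ranged from 12.1 for the cap chaperone Psmd9 to 210 for the lid subunit Psmd8. The 4 chaperones of core assembly, Psmg1 to Psmg4, stood at 23.3 to 39.9, and the lowest member was Psme4, the gene of the nuclear activator PA200, at 7.03.

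**Figure D1:**
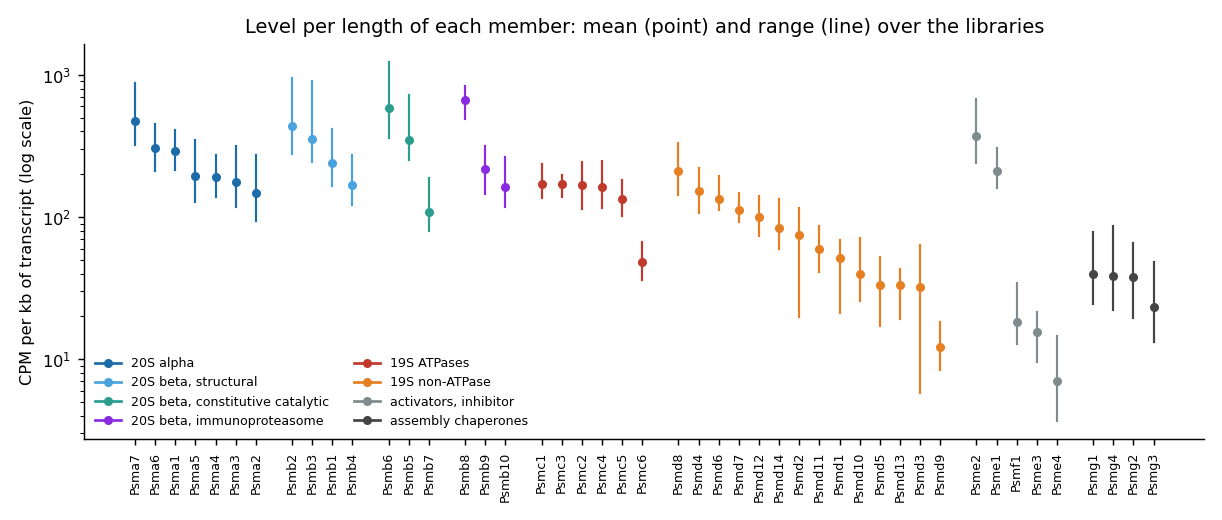
Level of each of the 46 members as CPM per kb of its principal transcript, on a log axis, coloured by role; the point is the mean and the line the range over 43 libraries. Psmb8 is highest at a mean of 666 and Psme4 lowest at 7.03, and the 19S ATPase genes other than Psmc6 lie close together.

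Members varied little between libraries of a group. The within-group SD of the log2 level had a median of 0.26 over the members, 0.34 over the 4458 genes with mean levels in the members' range and 0.54 over all tested genes. Psmc3, an ATPase of the cap, had the smallest ratio of highest to lowest TMM-scaled level, ranging from 228 to 326 CPM over all 43 libraries. Psmd3, a lid subunit, varied most, from 12.3 to 137 CPM.

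The catalytic subunits come in pairs, of which the immunoproteasome partner replaces the constitutive one at assembly: Psmb8 for Psmb5 (chymotrypsin-like activity), Psmb9 for Psmb6 (caspase-like) and Psmb10 for Psmb7 (trypsin-like). Plasma cells of all 12 groups carried transcripts of all 6. Per kb, Psmb8 exceeded Psmb5 in every library, by 1.03 to 2.52 times with a median of 1.98. Psmb10 exceeded Psmb7 in every library, by 1.04 to 1.99 times with a median of 1.46. Psmb9 stayed below Psmb6 in every library, at 0.127 to 0.543 of its level with a median of 0.404. The ratio of the Psmb9 pair was thus below those of the other pairs in all 43 libraries. The ratio of the Psmb8 pair exceeded that of the Psmb10 pair in 38 of them. Psmb8 group means ran from 961 ± 152 CPM (SD, n = 4, young YFP- spleen, day 90) to 1187 ± 43 (n = 3, young YFP+ marrow, day 90). Neighbours in that order did not differ beyond their SDs. In day 5 marrow the 2 libraries of mouse 09-29 had 1251 and 1252 CPM of Psmb8, while the 4 of mice 09-01 and 07-26 had 812 to 859. In YFP- spleen of day 5 the 3 mice were alike, at 1155 to 1198 CPM.

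**Figure D2:**
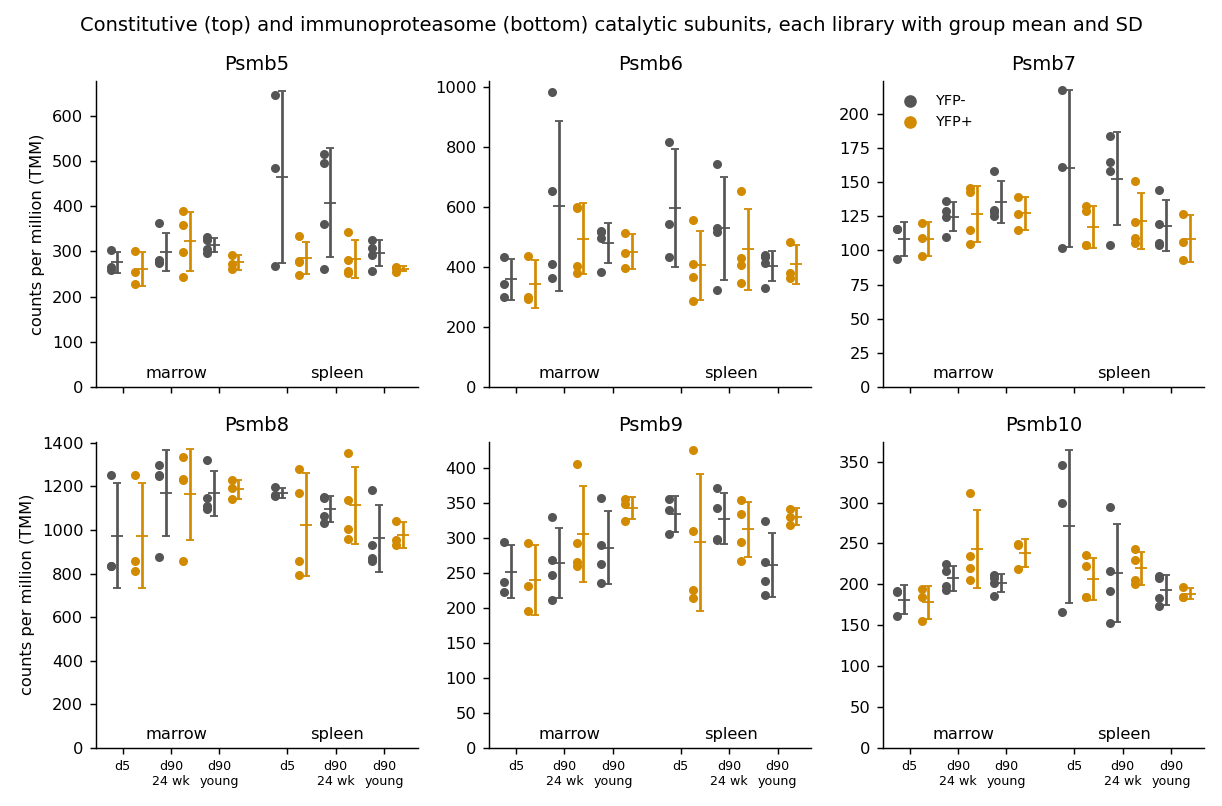
TMM-scaled CPM of the 3 constitutive (top) and 3 immunoproteasome (bottom) catalytic subunits in each library, with group mean and SD beside the points, by day, age, organ and sort. The sorts overlap in most panels, and the YFP- spleen groups at day 5, wide for Psmb5, Psmb7 and Psmb10 and narrow for Psmb8, rest on 3 libraries.

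YFP+ and YFP- cells were compared first at day 90, which asks whether plasma cells marked 90 days earlier differ from the rest of the compartment. Of the proteasome genes, Psmd8 alone passed the test, in the spleen. Psmd8 encodes a subunit of the 19S lid. Its level in YFP+ spleen cells was 239, 331, 252 and 233 CPM in the 4 middle-aged mice (M2, M3, F15 and F12, in this order) and 241, 247 and 276 in young mice F2, F7 and F9. In YFP- spleen cells it was 510, 457, 278 and 325 CPM in the same 4 middle-aged mice and 426, 311, 437 and 324 in young mice M7, F2, F9 and M2. The YFP- libraries of middle-aged M2 and M3 and of young M7 and F9 lay above every YFP+ library, and the groups overlapped between 278 and 331 CPM.

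The mean was 260 ± 34.2 CPM (SD, n = 7) in YFP+ and 384 ± 84.1 (n = 8) in YFP- spleen cells. The log2 change was -0.56 ± 0.13 (SE; 95% interval -0.82 to -0.30; edgeR quasi-likelihood adjusted p = 0.00624). With the mouse as a block it was -0.53 (adjusted p = 0.00258). In the same comparison 440 of 12457 genes were called (3.53%), 1.15% higher and 2.38% lower, so 1 of 46 members is near the share of all genes. Leaving out any library of the comparison kept the call, with the highest adjusted p of 0.0364 when YFP- spleen of middle-aged M2 was omitted. Without the 3 libraries of lowest Sdc1, which include it, the change was -0.48 (adjusted p = 0.0158).

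In bone marrow at day 90 Psmd8 was 261 ± 30 CPM (n = 7) in YFP+ and 352 ± 65.7 (n = 8) in YFP- cells. The log2 change of -0.43 ± 0.13 did not pass (edgeR adjusted p = 0.16). The difference between the marrow and spleen changes was 0.14 (95% interval -0.23 to 0.50, edgeR adjusted p = 1), so the organs were not shown to differ. Within ages, the spleen change was -0.56 ± 0.19 in young and -0.57 ± 0.17 in middle-aged mice (edgeR adjusted p = 0.21 and 0.13), and the latter passed with the mouse as a block (adjusted p = 0.0278).

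Where both sorts of an organ came from the same mouse, Psmd8 was lower in the YFP+ library in 18 of 18 pairs from 9 mice: 6 in marrow and 6 in spleen at day 90, and 3 in each organ at day 5. The median within-mouse difference was -0.36 on the log2 scale. Of all 12457 tested genes, 14 (0.112%) were lower in YFP+ in every pair. The next member was the alpha subunit gene Psma4, with 17 of 18. Without TMM scaling Psmd8 was also lower in 18 of 18 pairs (median -0.30), an alternative chosen after seeing the data. The pairs include the libraries of the spleen test above, and pairs of 1 mouse share that mouse. The pairing at day 5 is inferred from the titles. These 2 genes were singled out after their values were seen.

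**Figure D3:**
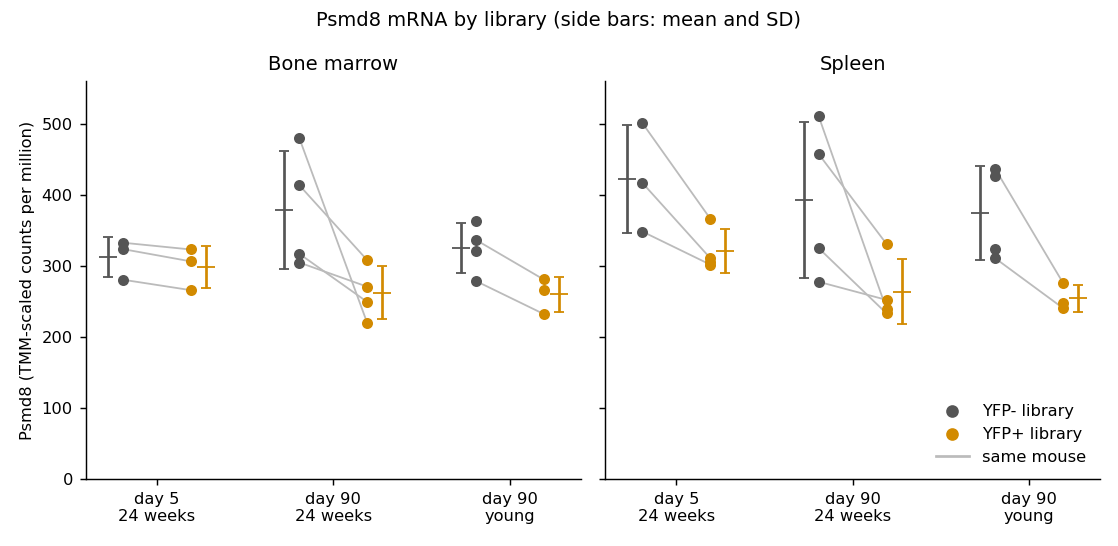
Psmd8 level (TMM-scaled CPM) in each library by organ, day, age and sort; grey lines join the libraries of a mouse, and side bars give group mean and SD. Every line runs down from YFP- to YFP+, from nearly level in day 5 marrow to steep in the day 90 spleen of mouse M2.

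Other properties of the spleen libraries differed with the sort at day 90. The summed level of 8 proliferation genes was 28.3 to 60.4 CPM in YFP+ and 68.2 to 312 in YFP- libraries, which did not overlap. The 4 NK cell genes summed to 2.49 to 13.6 CPM in YFP+ and 3.51 to 79.7 in YFP-, mostly from Gzma. Over all 43 libraries Ncr1 and Klrb1c were each at 0 in 42 and Klrd1 in 31, so this sum does not measure NK cells. The 7 neutrophil genes summed to 2.85 to 66.4 CPM in YFP+ and 0.318 to 492 in YFP-. The 6 mature B cell genes had higher sums in YFP+ libraries, at 136 ± 41.2 CPM against 97.7 ± 25.2. The 5 erythroid genes had medians of 3.97 and 4.55 CPM, means of 382 and 30.1, and highest libraries of 2367 and 159. Sdc1 was 401 to 870 CPM in YFP+ and 190 to 742 in YFP- libraries. The part of these in the Psmd8 result was not tested.

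The other 45 members did not pass at day 90 in either organ. In spleen 6 members including Psmd8 had an unadjusted p under 0.05, where 15.3% of all genes did, and all 6 were lower in YFP+: the alpha subunits Psma1, Psma3 and Psma4, the catalytic subunit Psmb5 and the ATPase Psmc6 were the others, with log2 changes of -0.31 to -0.36 and edgeR adjusted p of 0.083 to 0.275. DESeq2 called 1 member, Psmd8, as did the block fit. In marrow no member passed in the edgeR fit, the DESeq2 test or the block fit; 4 had an unadjusted p under 0.05 (8.66% of all genes), and 57 of all tested genes were called (0.458%). Over the members, 37 of 46 log2 changes were negative in marrow (median -0.12, all tested genes -0.01) and 38 of 46 in spleen (median -0.14, all tested genes -0.01). The 95% interval of all 46 members lay within a 2-fold change in both organs.

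The catalytic subunits had small changes. In spleen the log2 changes were -0.35 ± 0.14 for Psmb5, -0.10 ± 0.19 for Psmb6 and -0.22 ± 0.13 for Psmb7. Their immunoproteasome partners were at 0.02 ± 0.13 (Psmb8), 0.13 ± 0.14 (Psmb9) and 0.00 ± 0.13 (Psmb10). In marrow the constitutive subunits were at -0.04, -0.19 and -0.03 and the immunoproteasome subunits at 0.01, 0.24 and 0.23, in the same order. None of these 12 changes passed (edgeR adjusted p from 0.19 to 1). Psme1 and Psme2 encode the PA28 activator induced by interferon, and Psme3 its nuclear relative. Psme1 changed by 0.17 ± 0.12 in spleen and 0.13 ± 0.12 in marrow, Psme3 by -0.18 ± 0.13 and -0.20 ± 0.13, and Psme4 by -0.30 ± 0.20 and 0.17 ± 0.20, none past the test. Psme2 was at -0.08 ± 0.17 and -0.16 ± 0.17, and its values are uncertain because the near-identical gene Psme2b took 18.5 to 49.6 CPM in these libraries. The named pseudogenes of Psma5, Psmb5, Psmb6 and Psmb7 had means from 0 to 0.41 CPM.

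**Figure D4:**
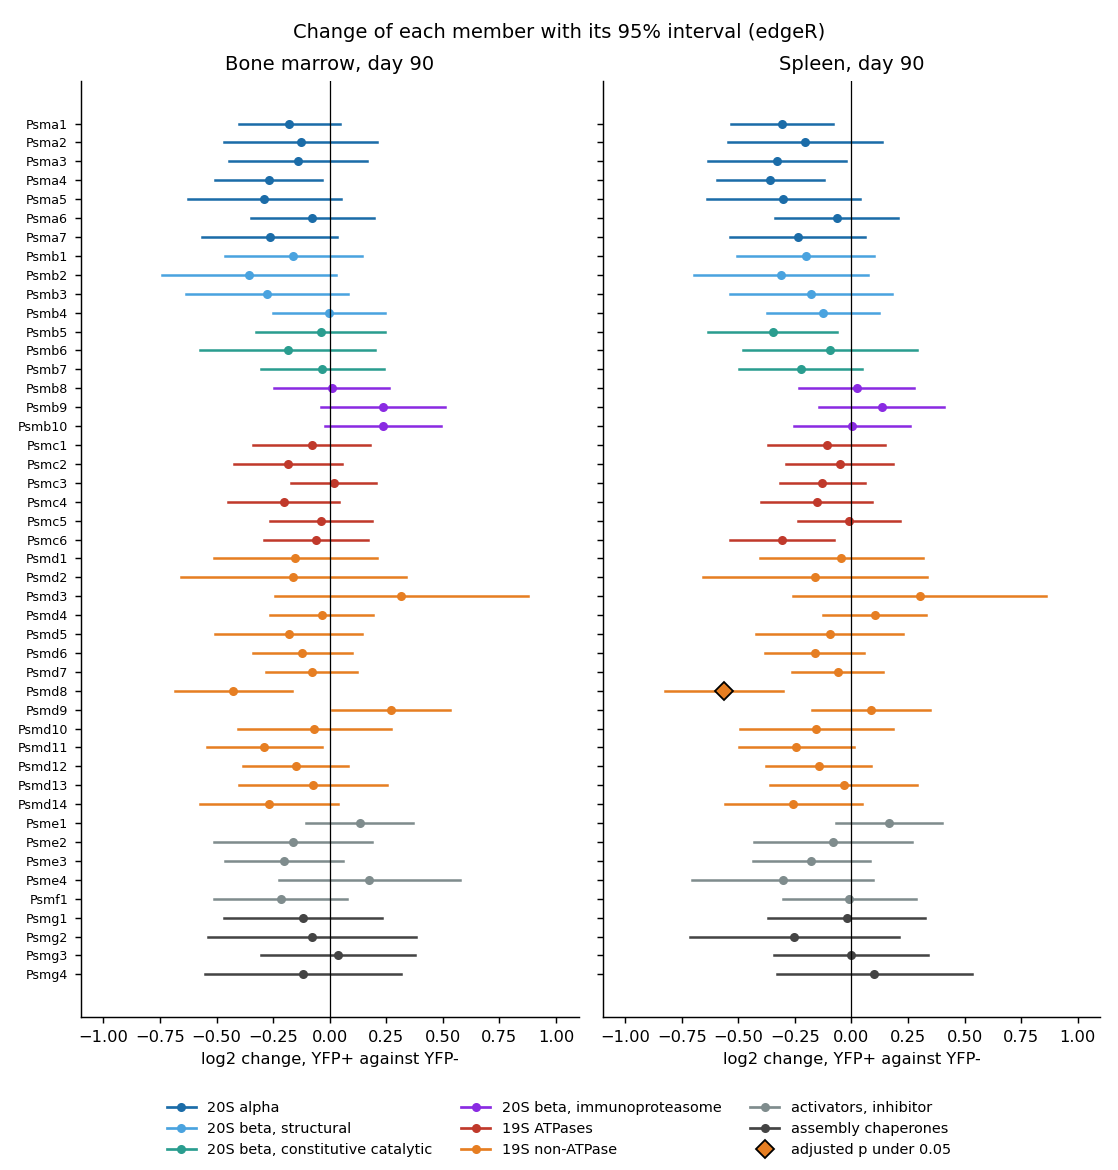
Log2 change of each member between YFP+ and YFP- cells at day 90 with its 95% interval, in marrow (left) and spleen (right), coloured by role. The only diamond, an adjusted p under 0.05, is Psmd8 in spleen at -0.56, and most points lie just below 0 in both organs.

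At day 5 no member passed in either organ. In marrow no member reached even an unadjusted p under 0.05, none was called by DESeq2 or the block fit, and no gene of the whole table was called (0%). Members' changes there ranged from -0.24 to 0.36 with a median of -0.02. Psmd8 was at -0.06 ± 0.20, with 266, 323 and 306 CPM in YFP+ and 281, 333 and 324 in YFP- libraries of mice 09-01, 07-26 and 09-29. The day 90 minus day 5 difference of the Psmd8 change in 24-week mice was -0.47 ± 0.27 in marrow and -0.18 ± 0.26 in spleen. No member passed either test of the difference in edgeR, DESeq2 or the block fit (0.0161% and 0.0562% of all genes called by edgeR), and 1 and 0 members had an unadjusted p under 0.05.

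In day 5 spleen, 11 members had an unadjusted p under 0.05 (15.0% of all genes), 10 of them lower in YFP+, while edgeR and DESeq2 called none and edgeR called no gene at all (0%). With the mouse as a block 2 members passed, Psma3 (-0.76, adjusted p = 0.048) and Psmb5 (-0.77, adjusted p = 0.0481), where 456 of all genes were called (3.66%). The constitutive catalytic gene Psmb5 was at 248, 277, 280 and 334 CPM in YFP+ libraries of mice 09-01, 07-26, 09-29 and 09-15. In YFP- libraries it was at 483, 645 and 267 in the first 3 of these mice. Psma3 was at 333, 405, 475 and 534 CPM in YFP+ and 633, 906 and 496 in YFP-. For both genes mice 09-01 and 07-26 were high in YFP-, and mouse 09-29 was level with its YFP+ library.

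The count of calls in day 5 spleen rested on single libraries. Without the YFP- library of mouse 09-29, 9 members passed (13.6% of all genes): Psmd1 and Psmd2, the large scaffold subunits of the cap, were higher in YFP+, and Psmb1, Psmb4, Psmb5, Psmb7, Psmb10, Psma3 and Psmg3 were lower. Without the YFP- library of mouse 07-26, which had the lowest Sdc1 of all 43 at 149 CPM, none passed, and the changes of Psma3 and Psmb5 were -0.36 and -0.39 (adjusted p = 1 for both). The other members of the named sets had changes of -0.56 ± 0.28 (Psmb6), -0.45 ± 0.20 (Psmb7), -0.19 ± 0.18 (Psmb8), -0.18 ± 0.20 (Psmb9) and -0.39 ± 0.18 (Psmb10). The activator genes were at -0.17 ± 0.17 (Psme1), -0.44 ± 0.25 (Psme2), 0.05 ± 0.19 (Psme3) and -0.46 ± 0.29 (Psme4). The edgeR adjusted p of these 9 was 0.29 to 0.91.

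Bone marrow, the main home of long-lived plasma cells, was compared with spleen within each sort. No member was shown to differ between the organs at day 90. In edgeR 0 members were called in YFP+ and 0 in YFP- cells, where 24 and 17 of all genes were called (0.193%, with 0.0963% higher and 0.0963% lower, and 0.136%, with 0.0642% higher and 0.0722% lower). At an unadjusted p under 0.05 there were 1 and 2 members (7.39% and 8.65% of all genes), and DESeq2 and the block fit called none. In YFP+ cells 38 of 46 members had a higher mean in marrow, with a median log2 change of 0.11 against -0.01 for all tested genes, and the smallest adjusted p was 0.492 for the cap chaperone Psmd9 (0.32 ± 0.13). In YFP- cells the median was 0.05. The direction between organs depended on the scaling. In YFP+ cells the members summed to 10526 CPM in marrow and 9830 in spleen with TMM scaling, and to 10379 and 10673 without it. In YFP- cells the sums were 11414 and 10850 with the scaling, and 10159 and 11151 without it. All 46 intervals were within 2-fold in both sorts. Psmb8 was 0.17 ± 0.13 higher in YFP+ and 0.19 ± 0.12 in YFP- marrow, and the other 9 always-named catalytic and activator genes had changes of -0.24 to 0.24, none past the test.

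At day 5 YFP+ cells gave no member at an unadjusted p under 0.05 (0% of all genes called by edgeR, and none of the members by DESeq2 or the block fit). YFP- cells of marrow and spleen differed more in the unadjusted values: 19 members had a p under 0.05 (17.5% of all genes), 18 of them lower in marrow, and the members' median was -0.27 against 0.03 for all genes. None passed in edgeR (smallest adjusted p 0.116; 0.00803% of all genes) or the block fit, and DESeq2 called 3 (4.33% of the genes it tested): Psmg3 (adjusted p = 0.016), Psmb5 (0.038) and the structural beta gene Psmb4 (0.0429). Psmg3 was at 15.4, 11.7 and 15.6 CPM in the marrow of mice 09-01, 07-26 and 09-29 and at 32.2, 42.7 and 17.9 in their spleens. The spleen libraries of the first 2 mice were again the high ones. Without the YFP- spleen library of mouse 09-29 edgeR called 14 members, 2 higher and 12 lower (16.2% of all genes), and without the 3 libraries of lowest Sdc1 it called none.

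Day 90 was set against day 5 in mice treated at 24 weeks. No member passed in YFP+ marrow, YFP+ spleen, YFP- marrow or YFP- spleen, by edgeR or DESeq2, where edgeR called 0.136%, 0.361% (0.0642% higher, 0.297% lower), 0% and 0% of all genes. The members at an unadjusted p under 0.05 numbered 5, 0, 11 and 0, against 12.9% of all genes in YFP+ marrow and 8.64% in YFP- marrow. All 11 in YFP- marrow were higher at day 90, among them Psmg4 (1.00 ± 0.32), Psmb3 (0.76 ± 0.26), Psmb6 (0.75 ± 0.28) and Psma7 (0.60 ± 0.22), with edgeR adjusted p of 0.479 or 0.48. The size of this rise depended on the scaling. The 46 members summed to 9720 CPM at day 5 and 11893 at day 90 in YFP- marrow with TMM scaling, and to 9924 and 10002 without it. The day 90 libraries of M2 and M3 there had TMM factors of 0.634 and 0.763. In YFP+ marrow Psmb10 was at 0.45 ± 0.19 and Psme3 at -0.39 ± 0.19 (edgeR adjusted p = 0.31 and 0.37). In YFP+ spleen, where 44 of 46 intervals stayed within 2-fold, the members' median was 0.01. Different mice were taken on the 2 days, so no block by mouse is possible here, and day and cohort cannot be told apart.

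Middle-aged mice were set against young mice at day 90. No member passed in any of the 4 combinations of organ and sort, by edgeR or DESeq2, and edgeR called 0.0241%, 0.0321%, 0% and 0% of all genes in YFP+ marrow, YFP+ spleen, YFP- marrow and YFP- spleen. Only YFP- spleen had members at an unadjusted p under 0.05, 6 in all (13.1% of all genes): Psme4 (0.72 ± 0.27), Psmb5 (0.46 ± 0.19), Psma3 (0.49 ± 0.21) and Psmb1 (0.43 ± 0.20) on the higher side in middle-aged mice, and Psmd2 (-0.89 ± 0.33) and Psmd3 (-0.79 ± 0.38) on the lower (edgeR adjusted p of 0.278 to 0.368). Their direction is that of the library pattern described next, and 3 of the 4 middle-aged YFP- spleen libraries were among the 7 of lowest TMM-scaled Sdc1. The strength of that pattern depended on the scaling, and its part in these changes was not tested. The change between sorts did not differ by age for any member in marrow or spleen (0% of all genes called in each; no member at an unadjusted p under 0.05, and none by DESeq2 or the block fit).

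Members also varied between libraries of the same group, and many followed Sdc1, the gene of the sort marker CD138. How many depended on the scaling. After subtracting each group's mean log2 level, 26 of 46 members had a Pearson r with Sdc1 below -0.5 over the 43 libraries, against 13.3% of all tested genes, and 4 had r above 0.5, against 16.8%. Without TMM scaling 12 members were below -0.5 and 9 above 0.5, an alternative chosen after seeing the data. The shares of all tested genes were not computed without the scaling, so these counts cannot be set against them. The TMM factors ranged from 0.634 to 1.19, and their deviations correlated with those of Sdc1 at 0.70. These correlations are descriptions: the libraries of a mouse share that mouse, all points share the scaling of their library, and the genes printed were picked for their values. With TMM scaling all 7 alpha ring genes, all 4 structural beta genes and all 3 constitutive catalytic genes were below -0.5, and without it 5, 3 and 1 of them. Of the immunoproteasome genes only Psmb8 was (-0.52, but 0.04 without the scaling), with Psmb10 at -0.45 and Psmb9 at -0.35. Of the 6 ATPases only Psmc6 was below -0.5 (-0.75, but -0.12 without the scaling). Without it the ATPases Psmc2 and Psmc3 were above 0.5 (0.504 and 0.714). The 4 above 0.5 with the scaling were Psmd2 (0.91), Psmd3 (0.86), Psmd1 (0.81) and Psmd13 (0.61), all of the cap. These stayed above 0.5 without the scaling (0.94, 0.91, 0.89 and 0.77).

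The TMM-scaled values of the libraries at the ends of the Sdc1 range were as follows. The 3 libraries of lowest Sdc1 were YFP- libraries: day 5 spleen of mouse 07-26, and day 90 spleen and marrow of middle-aged mouse M2. They had 149, 190 and 238 CPM of Sdc1, 745, 696 and 792 of the alpha subunit Psma2, 817, 744 and 985 of Psmb6, and 58.1, 83.9 and 94.1 of Psmd2. The marrow library has the smallest TMM factor, 0.634, and without the scaling it had 502 CPM of Psma2, 625 of Psmb6 and 59.7 of Psmd2. The 3 of highest Sdc1 were YFP+ libraries: day 5 spleen and marrow of mouse 09-01 and day 90 spleen of young mouse F7. They had 908, 886 and 870 CPM of Sdc1, 274, 313 and 292 of Psma2, 287, 302 and 364 of Psmb6, and 335, 316 and 249 of Psmd2. Between these 6 libraries Psma2 and Psmb6 ran opposite to Psmd2. Psmc3 was at 228 to 283 CPM, but without the scaling its r with Sdc1 was 0.71, against 0.11 with it. The sort is not separate from this pattern, since the 3 lowest are YFP- and the 3 highest YFP+.

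The relation was also seen in parts of the data. For Psma2, r was -0.93 (Spearman's rho -0.93; -0.85 without TMM scaling), -0.93 without the 2 libraries farthest from the median Sdc1, and -0.93, -0.97 and -0.88 within day 5, middle-aged day 90 and young day 90 mice. It was -0.91 among the 21 YFP+ and -0.95 among the 22 YFP- libraries, and -0.92 over the means of the 13 mice. For Psmb6 the corresponding r was -0.90 overall (rho -0.88; -0.87 without the scaling), -0.90 without the 2 libraries, -0.90, -0.95 and -0.75 within cohorts and -0.89 over mouse means. For Psmd2 it was 0.91 (rho 0.77), 0.88 without the 2 libraries, 0.97, 0.95 and 0.40 within cohorts and 0.92 over mouse means, so it was weaker in young mice. For Psmd8 it was -0.68 (rho -0.63; -0.28 without the scaling), -0.61 without the 2 libraries, -0.51, -0.88 and -0.42 within cohorts and -0.36 over mouse means.

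Transcript length moved with this pattern. The principal transcripts of the members had a median length of 1435 bases, against 2879 for all tested genes with a length, and Sdc1's is 3157. Across the 46 members r with Sdc1 correlated with the log of transcript length at 0.46 (0.29 across all tested genes with a length) and with GC content at 0.20 (0.14). Genes are not independent replicates. The part of length, and of RNA quality in general, in the pattern was not tested.

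**Figure D5:**
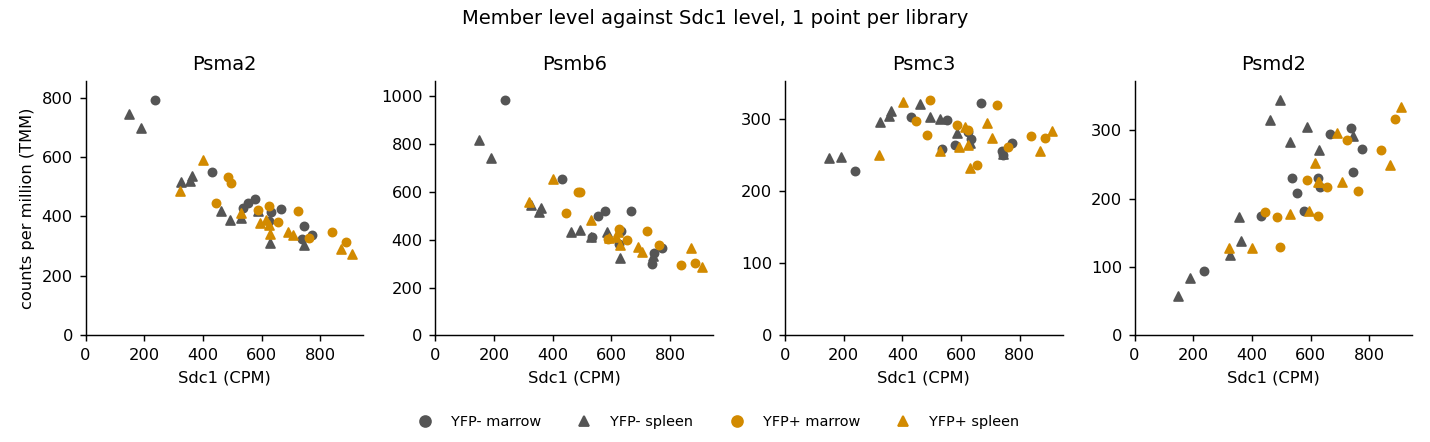
Level of Psma2, Psmb6, Psmc3 and Psmd2 against Sdc1 (both TMM-scaled CPM), 1 point per library, by sort (colour) and organ (shape). Psma2 and Psmb6 fall and Psmd2 rises with Sdc1 across both sorts and organs, while Psmc3 stays between 228 and 326 CPM on this scaling.

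The direction of the summed level of the 46 members between the sorts depended on the scaling in marrow. With TMM scaling the sum at day 90 was 10526 ± 1039 CPM (SD, n = 7) in YFP+ and 11414 ± 1795 (n = 8) in YFP- marrow, and without it 10379 ± 686 and 10159 ± 606. In spleen it was 9830 ± 1223 and 10850 ± 1328 with the scaling and 10673 ± 408 and 11151 ± 896 without it. The ATPase genes summed to 1360 ± 94.6 and 1452 ± 143 CPM in marrow with the scaling, and to 1344 ± 83.5 and 1304 ± 129 without it. In spleen they summed to 1289 ± 129 and 1383 ± 171, and to 1402 ± 56.1 and 1426 ± 161. These gaps between means were within the SD of the YFP- group in each case.

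Lists of the surrounding pathway gave few calls, and the lists were chosen with earlier results of these data known. None of the 16 tested genes of proteasome-associated factors and assembly outside the Psm names, the 9 for control of proteasome gene transcription (Nfe2l1 and its partners), the 10 for ubiquitin and its activation or the 23 for degradation from the endoplasmic reticulum passed in any of the 16 comparisons in edgeR. Their medians between the sorts in spleen at day 90 were -0.08, 0.39, -0.16 and -0.13 on the log2 scale. At an unadjusted p under 0.05 there were 0, 1, 0 and 3 genes, where 15.3% of all genes passed that limit. In marrow the medians were -0.11, 0.27, -0.15 and -0.12, with 0, 0, 2 and 6 genes at that limit (8.66% of all genes). The endoplasmic reticulum list is sensitive to the setting in spleen at day 90: 6 of the 8 other settings called Sel1l, and 3 of these (DESeq2, the block fit and the fit of only the groups compared) called Erlec1 too, both named after their values were seen.

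The interferon list gave 1 call among 9 genes, in a comparison that called 3.53% of all genes. Isg15, a ubiquitin-like protein induced by interferon, was at 2.31 ± 0.994 CPM (n = 7) in YFP+ and 6.98 ± 4.12 (n = 8) in YFP- spleen cells at day 90. The YFP+ libraries held 1.12 to 3.93 CPM and the YFP- libraries 2.37 to 12.6, with an overlap. The log2 change of Isg15 was -1.58 ± 0.40 (edgeR adjusted p = 0.0148), which was lost in 3 of 15 fits with 1 library omitted (adjusted p reached 0.0631 when YFP+ spleen of young F2 was omitted). The other 8 genes of the list did not pass, and the list's median was -0.07.

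Class I presentation, which uses peptides cut by the proteasome, gave 2 calls among 10 genes. Both were between organs in YFP- cells at day 90, where 0.136% of all genes were called. In YFP+ cells edgeR called neither, but DESeq2, the block fit, the fit without a filter and that of only the groups compared each called both. The block fit also called B2m, Erap1 and Tapbp between the sorts in day 5 spleen. H2-D1 was at 2045 ± 556 CPM in marrow and 3413 ± 430 in spleen (n = 8 each), and H2-K1 at 1281 ± 258 and 2092 ± 257. The log2 changes were -0.74 ± 0.16 for H2-D1 and -0.70 ± 0.15 for H2-K1 (edgeR adjusted p = 0.0302 and 0.0282). Libraries of the organs did not overlap for either gene: H2-D1 reached 2726 in marrow and began at 2855 in spleen, and H2-K1 reached 1655 and began at 1741. Each call was lost in 9 of 16 fits that left out 1 library, with adjusted p up to 0.104 and 0.072. In the same comparison Psmb8, Psmb9 and Psmb10, which shape class I peptides, were at 0.19 ± 0.12, -0.09 ± 0.13 and 0.01 ± 0.12, and none passed.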

How the data were processed

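RNA of sorted plasma cells was made into libraries with the SMART-Seq v4 and Nextera XT kits, per the labels' protocols. The deposited values are expected counts per gene of the authors, not all whole (3.1% of the values have a fraction), with immunoglobulin genes left out. Tools listed in the submitters' processing notes are the aligner STAR (2.6.1b), the quantifier RSEM (1.3.1) and DESeq2 (1.26.0). The notes list mm10 as well as mm39, and no role is given. Counts were rounded to whole numbers. The 1362 rows without a gene name could match no member or list, but they stayed in the table and could be among the tested genes.

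Genes were filtered with edgeR's filterByExpr (minimum count 10), scaled by TMM and fitted with edgeR 4.0.16 (quasi-likelihood, robust; R 4.3.3, limma 3.58.1) in 1 model of the 12 group means over 43 libraries. P-values were adjusted by Benjamini-Hochberg over all 12457 genes in each comparison, with a threshold of 0.05. Comparisons at day 90 weight the ages equally. The model treats the libraries of a mouse as independent. The titles at day 90 name the mouse. Most of those at day 5 give only a date-like number, and libraries that share it were taken as the same mouse. Over all cohorts, deviations from the group means correlated at a median of 0.181 within a mouse (57 pairs) and -0.0899 between mice of a cohort (232 pairs). A fit with the mouse as a block was the paired alternative. The others were DESeq2 1.42.0, other scalings, no filter, only the groups compared and leaving out each library, and, chosen after seeing the data, leaving out the 3 libraries of lowest Sdc1 and CPM without TMM scaling for pairs and correlations. Models were tested on simulated data.

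CPM are TMM-scaled and given as mean ± SD. Length is that of the longest principal transcript in GENCODE M21 (GRCm38). Total counts of 6643295 to 12663103 per library set the precision.

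Members and lists were chosen with earlier results of these data known. Named with values were members past the threshold in any comparison, the catalytic and activator genes Psmb5 to Psmb10 and Psme1 to Psme4, pathway genes past the threshold, and the members at the ends of the level range and at the limit of 1 CPM. Other members named were chosen after their values were seen.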

Additional observations from a re-analysis of the deposited data

Results flagged for a closer look

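For 14 quantities, each group of 4 libraries was examined for a single library far from the other 3, and 8 of 98 such tests met Dixon's 95% value, where chance gives about 1 in 20. At day 5 in YFP+ spleen, mouse 09-15 had 322 CPM of Psme1 against 214 to 224 in the others, and mouse 07-26 had 367 CPM of Psmd8 against 302 to 311. In YFP- marrow of middle-aged mice at day 90, M3 had 363 CPM of Psmb5 against 274 to 281, and F12 had 876 CPM of Psmb8 against 1249 to 1300. In YFP+ spleen of middle-aged mice, M3 had 47.0 CPM of Psme4 against 39.4 to 40.4, and 32.9 CPM of Psmd3 against 73.5 to 79.8. In YFP- marrow of young mice, F2 had 383 CPM of Psmb6 against 499 to 522, and F9 had 158 CPM of Psmb7 against 125 to 130.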

How the results depend on the processing

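Over 21 comparisons and 8 other settings, 141 of 143 counts of called members stayed at 0 or within 1.5 times the reported value. The reported count was 0 in every comparison except that of the sorts in day 90 spleen, so most of these counts only stayed at 0. The replicate block by mouse gave 2 members in YFP+ against YFP- spleen at day 5, where the fit without it gave 0, and it changed no other count among the 13 comparisons it could be run on. The 8 comparisons of days or ages are between different mice and allow no block. DESeq2 gave 3 members between marrow and spleen YFP- cells at day 5, where edgeR gave 0. The causes were not tested. Without TMM scaling 12 members in place of 26 had r with Sdc1 below -0.5, and 9 in place of 4 above 0.5. The shares of all genes were not computed without the scaling. Leaving out 1 library gave 1 to 2 members in day 90 spleen between the sorts (Psma4 was added when YFP- spleen of middle-aged F15 was omitted, where 5% of all genes were called), 0 to 9 in day 5 spleen, 0 to 14 between organs in YFP- cells at day 5, and 0 in the other 18 comparisons. Psmd8 in day 90 spleen kept its call in the 8 other settings (adjusted p from 0.00162 to 0.0328) and in 15 fits without 1 library (log2 change -0.63 to -0.47). Day 5 comparisons rest on 3 or 4 libraries a group, and there 30 to 46 of the 46 intervals stayed within 2-fold.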

Other observations

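A day 5 marrow library of mouse 09-15 has a title of the YFP- kind and a cell type label of the YFP+ kind, and was put in no group. Its 46 members summed to 11714 CPM without TMM scaling. Of the 46, 2 lay outside the range of the other 43 libraries: the core assembly chaperone genes Psmg1 at 55.7 CPM (28.4 to 55.5 in the others) and Psmg4 at 40.6 CPM (11.6 to 35.6). Psmd8 was at 308 CPM, Psmb8 at 1297, Psmb5 at 266 and Sdc1 at 527.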
